A study of Mus musculus with 12 samples.

Results

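Axonemal dyneins, cilia and flagella associated proteins (CFAPs) and radial spoke proteins build the moving core of the sperm tail, and the levels of their RNAs were followed here from round to elongated mouse spermatids. The set held 86 genes, chosen by symbol alone: every contig whose gene symbol began with Cfap, Dnah, Dnai, Dnal, Dnaaf, Drc and a digit, Rsph or Odad. A contig is 1 reference transcript to which reads were assigned, and the genes had 140 contigs among the 12114 counted. In all, 41 genes had several contigs, up to 7 for Dnah8, and 139 of the 140 contigs had enough counts to be tested. Dnaaf6rt, with 39 counts in all libraries together, did not.

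The axoneme is a ring of microtubule doublets around a central pair. Outer and inner dynein arms on each doublet walk along its neighbour, radial spokes and the nexin-dynein regulatory complex pass signals from the central pair to the arms, and microtubule inner proteins line the lumen of the doublets. Dynein arms are folded and joined in the cytoplasm by assembly factors before they reach the tail. In spermatids the axoneme starts to grow in round cells, while most transcription stops as the nucleus condenses.

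Nanopore direct RNA sequencing had been run on 12 libraries in 4 groups of 3. They held round (RS) or elongated (ES) spermatids of males that were wt/wt or dcat/dcat at Tent5c, where dcat is a knock-in allele coding for a catalytically dead TENT5C poly(A) polymerase, made and kept on C57BL/6. All males were adult, and each library held the pooled RNA of 3 mice, so p-values measure the spread between such pools. By the study's account RS and ES were isolated from the same mice, so the RS and ES groups of a genotype share animals. Each sort session held both genotypes. Whether equal replicate numbers mark the same pool is not given in the sources used here, and the main test below takes no account of the sharing. Cells of both genotypes came from the same Hoechst and propidium iodide sort, so a group is an enriched gate and not a pure cell type.

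Total counts per library ran from 337287 to 1359427, with the ES wt/wt replicate 3 the shallowest. Of 12 tested contigs of elongated spermatid markers 11 were higher in ES in both genotypes, and their summed level was 19270 to 41600 CPM (counts scaled to a common library total) in RS and 210116 to 279484 CPM in ES. Of 9 tested contigs of round spermatid markers 2 were higher and 3 lower in wt/wt (2 and 2 in dcat/dcat). The lower ones included Spag6l in both genotypes, a gene also read below among other axonemal genes. Of 21 tested contigs of meiotic markers 6 were higher and 5 lower in wt/wt (5 and 4 in dcat/dcat). Markers of somatic testis cells were higher in ES. Of 8 Leydig cell genes 5 had tested contigs, and all 6 of these contigs were higher in ES, with a summed level of 14.1 to 44.4 CPM in RS and 241 to 859 CPM in ES. Of 9 Sertoli cell genes 4 had tested contigs, and all 5 were higher in ES, from 6.41 to 44.6 CPM in RS to 232 to 474 CPM in ES. The defining genes Star, Hsd3b1 and Lhcgr of Leydig cells and Sox9, Amh and Wt1 of Sertoli cells had no tested contig. Of 8 genes of multiciliated epithelium 1 had a tested contig, Foxj1, the transcription factor of motile ciliogenesis that spermatids also use. Their part in the axonemal values was not tested. Tent5c itself lay between 239 and 404 CPM in RS and between 809 and 1114 CPM in ES. A point mutation cannot be read from counts, so this checks no genotype label.

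The axonemal share of the counts fell between the stages. Among RS libraries, axonemal contigs took 1.65, 1.48 and 1.41% of all counts with wt/wt and 1.62, 1.45 and 1.41% with dcat/dcat. Among ES libraries the shares were 0.666, 0.619 and 0.721% with wt/wt and 0.624, 0.656 and 0.700% with dcat/dcat. Every RS library lay above every ES library, and the genotypes overlapped in both stages. Since a few very abundant RNAs can lower such a share, it was taken again outside the 10 most abundant contigs of each library, where it was 1.53 to 1.74% in RS and 0.787 to 0.890% in ES.

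To compare single contigs, counts were scaled by TMM, which uses a trimmed mean of the ratios between libraries, and tested with edgeR. Values below are CPM after TMM scaling, listed by replicate number, and q is the p-value after Benjamini-Hochberg adjustment over all 11831 contigs tested, with a call at 0.05. In wt/wt, 43 of 139 axonemal contigs (30.9%) fell from RS to ES, against 16.5% of all contigs, and 11 (7.91%) rose, against 23.8%. In dcat/dcat 46 (33.1%) fell, against 16.9% of all contigs, and 12 (8.63%) rose, against 24% of all contigs. The median axonemal log2 change was -0.64 in wt/wt and -0.64 in dcat/dcat, and that of all contigs was -0.24 and -0.18. In both genotypes, 36 of 139 axonemal contigs fell and 11 rose, against 1347 and 2568 of all 11831 contigs. With 1 contig a gene, the one with the most counts, 37 of 85 genes fell in wt/wt and 6 rose. No share over all genes was taken for this, so these counts cannot be set against the contig shares above. Lower in every ES library than in every RS library were 59 axonemal contigs in wt/wt and 57 in dcat/dcat, and 15 were higher in each. Among all 11831 contigs, 3234 and 2983 were lower in this way and 3068 and 3042 higher. A gap between the stages was thus common, so it adds little to a call. Bulk counts cannot tell fewer cells of a type from less RNA per cell.

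These counts depend on the libraries and on the scaling. The 43 falls in wt/wt became 21 without ES wt/wt replicate 2 and 28 without ES wt/wt replicate 3. Scaled by total counts alone, the median of all contigs was -0.96 in wt/wt and -0.85 in dcat/dcat, and 88 axonemal contigs fell and 6 rose in wt/wt, with 88 and 7 in dcat/dcat. All 43 and 46 contigs that had fallen were also called lower under that scaling, whereas 6 of 11 and 7 of 12 risen contigs were also called higher. The scaling lowered the median of all contigs, so contigs that had fallen could hardly lose their call. Their keeping it is therefore no check on the falls. The share of all contigs called under it is not given here. With 1 library left out, 17 of the 43 falls in wt/wt and 29 of the 46 in dcat/dcat were called in all 6 fits, as were 8 of 11 and 8 of 12 rises. Of the contigs named below, those of Cfap91, Cfap107, Cfap251, Cfap299, Odad4 and Dnaaf1 lost their wt/wt call without ES replicate 2 and also without ES replicate 3, and those of Cfap45, Cfap161, Drc1 and Rsph3a without ES replicate 2. The wt/wt call of the fallen Cfap68 contig was lost without any 1 of the 3 ES libraries, that of Dnaaf5 without ES replicate 1 or 2, and those of Cfap65 and Dnal1 without ES replicate 1. That of Dnai1 was lost in 4 of 6 fits, and Cfap91, Dnaaf1 and Odad4 also lost theirs without RS replicate 1. In dcat/dcat the calls of Cfap45, Cfap107, Dnal1, the coding contig of Cfap61 and the risen Cfap206 contig were each lost in 4 of 6 fits. Those of Dnai1 and Rsph1 were lost without RS replicate 1, ES replicate 2 or ES replicate 3, that of Odad4 without RS replicate 1 or ES replicate 2, that of Cfap251 without ES replicate 1 or 3, and that of the short Cfap61 contig without ES replicate 2.

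**Figure D1:**
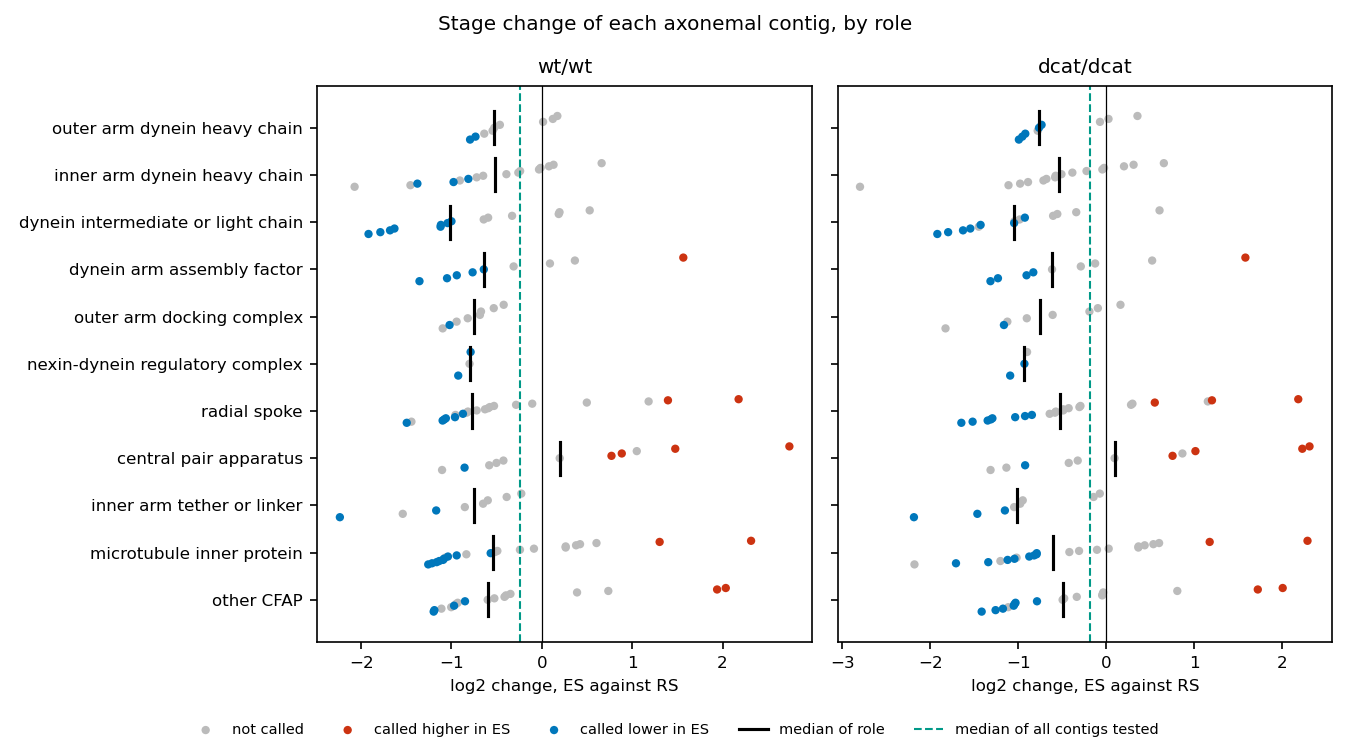
Log2 change from RS to ES of each of 139 axonemal contigs (points) by role in wt/wt (left) and dcat/dcat (right), with calls at q of 0.05 coloured, the median of each role as a black bar and the median of all 11831 contigs as a dashed line. Under TMM scaling, 10 of the 11 roles have their median to the left of the dashed line in both genotypes, the central pair apparatus does so only with 1 contig a gene (-0.46 and -0.38), and the 11 and 12 risen contigs lie in 5 of the 11 roles.

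Dynein heavy chains, the ATPase motors, numbered 25 contigs of 12 genes. Of these 5 fell in wt/wt and 5 in dcat/dcat, or 20% each against 16.5% and 16.9% of all contigs, 2 fell in both and 0 rose. Their median change was -0.53 in wt/wt and -0.58 in dcat/dcat. Dnah8, an outer arm heavy chain of the testis, stood in its most counted contig ENSMUST00000236140 at 125, 152 and 108 CPM in the RS wt/wt libraries and 69.7, 79.9 and 81.2 CPM in the ES wt/wt libraries. It stood at 139, 156 and 145 CPM in RS dcat/dcat and 76.5, 84.9 and 101 CPM in ES dcat/dcat. The stages did not overlap in either genotype, and the change was -0.73 (SE 0.20, q = 0.0103) in wt/wt and -0.73 (SE 0.20, q = 0.00887) in dcat/dcat. Dnah17, the other outer arm heavy chain of sperm, was at 70.6, 35.8 and 34.3 CPM in the RS wt/wt libraries and 38.03, 30.4 and 28.2 CPM in the ES wt/wt libraries, where 2 RS values lay within the range of the ES ones. In its most counted contig it changed by -0.53 (SE 0.37, q = 0.276) in wt/wt and -0.78 (SE 0.37, q = 0.105) in dcat/dcat, and a second contig, ENSMUST00000084803, fell only in dcat/dcat by its call, with -0.64 (SE 0.36, q = 0.17) in wt/wt and -0.99 (SE 0.36, q = 0.0388) in dcat/dcat. The difference between genotypes was not called for any of them. Left out 1 library at a time, the most counted contig of Dnah8 lost its call in 2 of 6 fits in wt/wt (without RS replicate 2 or ES replicate 1), and the second contig of Dnah17 in 4 of 6 in dcat/dcat. With the replicate block, the most counted contig of Dnah17 was also called in dcat/dcat (-0.71, q = 0.0246 by edgeR).

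Among inner arm heavy chains, Dnah1 was at 58.2, 58.4 and 66.2 CPM in the RS wt/wt libraries and 50.7, 26.6 and 24.7 CPM in the ES wt/wt libraries and changed by -0.81 (SE 0.29, q = 0.0369) in wt/wt and -0.71 (SE 0.28, q = 0.0554) in dcat/dcat. All 3 ES wt/wt values lay below all RS ones. Dnah6 changed by -1.38 (SE 0.47, q = 0.0314) in wt/wt and -1.11 (SE 0.46, q = 0.0646) in dcat/dcat and Dnah14 by -0.98 (SE 0.36, q = 0.0401) in wt/wt and -0.04 (SE 0.32, q = 0.957) in dcat/dcat. The wt/wt call of Dnah14 was lost in all 6 fits with 1 library left out and those of Dnah1 and Dnah6 in 5 of 6 each. With the replicate block, Dnah1 (-0.71, q = 0.0208 by edgeR) and Dnah6 (-1.12, q = 0.0223) were called in dcat/dcat too. In the remaining 7 genes, Dnah2, Dnah3, Dnah7a, Dnah7b, Dnah7c, Dnah10 and Dnah12, the most counted contig was called in neither genotype. Their log2 changes ran from -1.45 (Dnah2) to 0.08 (Dnah12) in wt/wt and from -0.98 (Dnah2) to 0.31 (Dnah7b) in dcat/dcat. They had 0 to 40 counts a library. Dnah7a and Dnah7c share 96.9% of their coding bases, so reads may be split between them. The most counted contigs of 11 of these 12 genes are annotated with 12009 to 16685 bases, and reads start at the poly(A) tail, so reads that end early may fit several contigs of a gene.

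**Figure D2:**
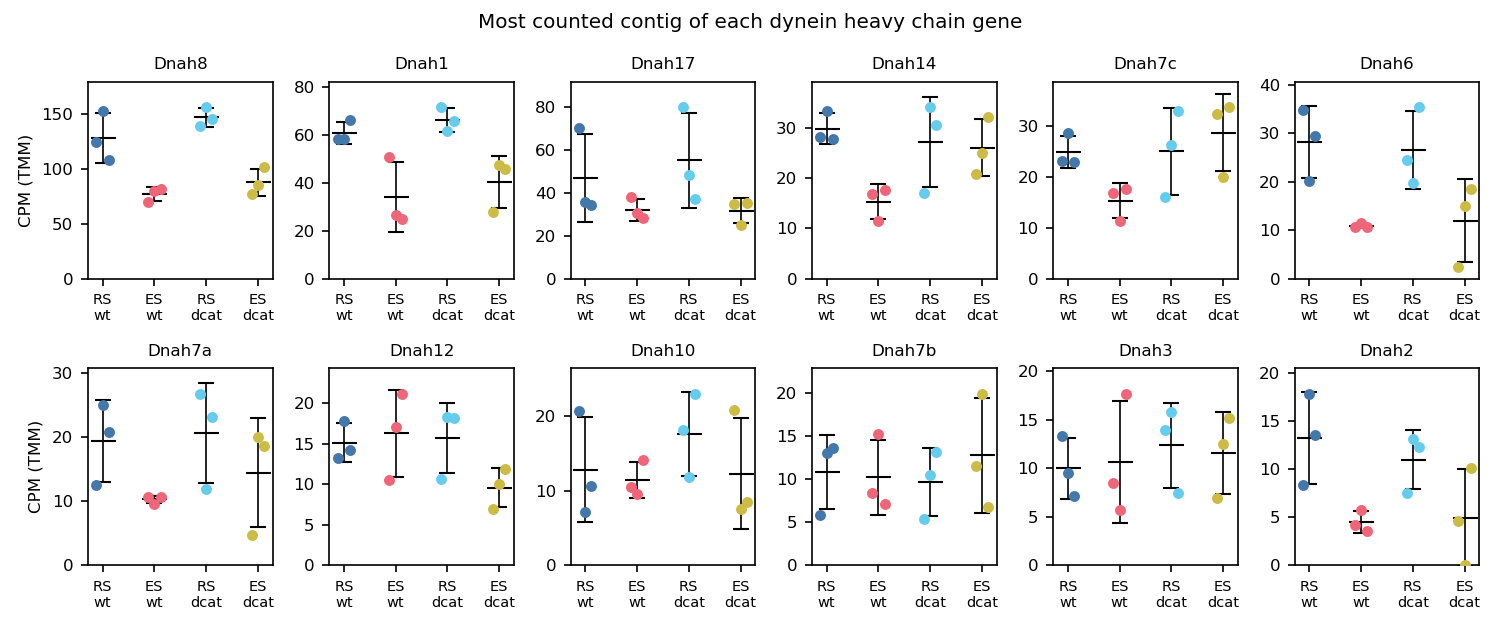
TMM-scaled CPM (y axis, from 0) of the most counted contig of each of 12 dynein heavy chain genes in the 4 groups, with points for the 3 libraries and bars for mean and SD. Dnah8 lies lower in all ES libraries of both genotypes, whereas Dnah3, Dnah7b, Dnah10 and Dnah12 overlap between stages in wt/wt.

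The intermediate and light chains, which hold and regulate the heavy chains, fell in 8 of 14 contigs in wt/wt (57.1%) and 7 in dcat/dcat (50%). Of all contigs 16.5% and 16.9% fell. The medians of these chains were -1.02 and -1.05, with 0 rises, against 23.8% and 24% of all contigs. Dnai2, an outer arm intermediate chain, was at 101, 63.1 and 52.04 CPM in the RS wt/wt libraries and 25.4, 20.9 and 14.1 CPM in the ES wt/wt libraries. It was at 79.1, 49.8 and 53.6 CPM in RS dcat/dcat and 20.9, 24.97 and 21.9 CPM in ES dcat/dcat. Each ES library lay below each RS library, and the change was -1.79 (SE 0.34, q = 7.8e-04) in wt/wt and -1.43 (SE 0.34, q = 0.00342) in dcat/dcat. Its second contig, ENSMUST00000092469, changed by -1.92 (SE 0.37, q = 9.2e-04) in wt/wt and -1.92 (SE 0.36, q = 6.7e-04) in dcat/dcat, or 3.78-fold and 3.79-fold lower. Dnai3, an inner arm intermediate chain, was at 111, 116 and 106 CPM in the RS wt/wt libraries and 35.9, 47.6 and 74.2 CPM in the ES wt/wt libraries, and at 154, 138 and 97.2 CPM in RS dcat/dcat and 30.1, 29.96 and 48.97 CPM in ES dcat/dcat. The groups were apart in both genotypes, with a change of -1.12 (SE 0.28, q = 0.00582) in wt/wt and -1.80 (SE 0.29, q = 2.1e-04) in dcat/dcat. Dnal4, a light chain, changed by -1.68 (SE 0.36, q = 0.00201) in wt/wt and -1.54 (SE 0.36, q = 0.00309) in dcat/dcat, and both Dnai1, an outer arm intermediate chain, and Dnal1, a light chain of the outer arm motor, fell in both genotypes with log2 changes from -1.12 to -0.93. Dnali1, the light intermediate chain of inner arms, was called in neither genotype. It was at 219, 168 and 190.4 CPM in the RS wt/wt libraries and 264, 205 and 191 CPM in the ES wt/wt libraries, which overlap, and changed by 0.20 (SE 0.18, q = 0.413) in wt/wt and -0.34 (SE 0.19, q = 0.16) in dcat/dcat. Under scaling by total counts alone its change was -0.53 in wt/wt and -1.01 in dcat/dcat, both called.

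Of 9 tested contigs of assembly factors 5 fell and 1 rose in wt/wt, and 4 fell and 1 rose in dcat/dcat. The falls were 55.6% and 44.4%, against 16.5% and 16.9% of all contigs, and the rises 11.1% in each, against 23.8% and 24%. Cfap298, a cytoplasmic factor of dynein preassembly, was at 518, 521 and 465 CPM in the RS wt/wt libraries and 239, 209 and 282 CPM in the ES wt/wt libraries. It was at 583, 551 and 427 CPM in RS dcat/dcat and 271, 177 and 179 CPM in ES dcat/dcat. The stages were apart in both genotypes and the change was -1.05 (SE 0.20, q = 7.7e-04) in wt/wt and -1.32 (SE 0.20, q = 1.3e-04) in dcat/dcat, about 2.07-fold and 2.49-fold lower in ES. Dnaaf1, a leucine-rich repeat assembly factor, changed by -0.64 (SE 0.19, q = 0.0133) in wt/wt and -0.83 (SE 0.19, q = 0.00263) in dcat/dcat, and Dnaaf11, another one, by -0.94 (SE 0.22, q = 0.00314) in wt/wt and -1.23 (SE 0.22, q = 4.6e-04) in dcat/dcat. Dnaaf5, a HEAT repeat factor, changed by -1.35 (SE 0.38, q = 0.0103) in wt/wt and -0.62 (SE 0.37, q = 0.199) in dcat/dcat. Dnaaf9, related to a factor that packages outer arms for transport in ciliates, went the other way. It was at 5.82, 10.7 and 8.28 CPM in the RS wt/wt libraries and 19.02, 26.6 and 28.2 CPM in the ES wt/wt libraries. It was at 6.41, 10.5 and 11.5 CPM in RS dcat/dcat and 32.5, 27.5 and 27.02 CPM in ES dcat/dcat, so that all ES values exceeded all RS values, with a change of 1.57 (SE 0.36, q = 0.00338) in wt/wt and 1.58 (SE 0.35, q = 0.00238) in dcat/dcat. Under scaling by total counts the rise of Dnaaf9 was 0.86 in wt/wt, without a call, and 0.92 in dcat/dcat, with one.

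The docking complex of the outer arm had 8 tested contigs of 4 genes. In each genotype 12.5% of them fell, against 16.5% and 16.9% of all contigs, and only Odad4 was called. It was at 206, 122 and 129 CPM in the RS wt/wt libraries and 97.2, 51.4 and 77.7 CPM in the ES wt/wt libraries. Replicate 1 was the highest RS library in either genotype, and the change was -1.02 (SE 0.33, q = 0.0219) in wt/wt and -1.16 (SE 0.33, q = 0.0113) in dcat/dcat. Odad2 and Odad3 changed by -0.42 and -0.94 in wt/wt, neither with a call. All 3 measured genes of the nexin-dynein regulatory complex had a negative change. Drc1 and Drc7 fell in both genotypes, with a change of -0.93 (SE 0.23, q = 0.00574) in wt/wt and -0.93 (SE 0.23, q = 0.00493) in dcat/dcat for Drc1 and of -0.79 (SE 0.28, q = 0.0348) in wt/wt and -1.09 (SE 0.28, q = 0.00596) in dcat/dcat for Drc7, while Drc3 changed by -0.80 (SE 0.35, q = 0.0828) in wt/wt and -0.90 (SE 0.35, q = 0.051) in dcat/dcat. The wt/wt call of Drc7 was lost in 5 of 6 fits with 1 library left out, and with the replicate block Drc3 was called in dcat/dcat (-0.89, q = 0.0056 by edgeR).

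Radial spokes had 22 contigs of 11 genes, of which 6 fell and 2 rose in wt/wt, and 8 fell and 3 rose in dcat/dcat. The falls were 27.3% and 36.4%, against 16.5% and 16.9% of all contigs, and the rises 9.09% and 13.6%, against 23.8% and 24%. Rsph9, a spoke head protein, was at 274, 300.3 and 273 CPM in the RS wt/wt libraries and 142, 137 and 120.1 CPM in the ES wt/wt libraries. It was at 270.3, 278 and 253 CPM in RS dcat/dcat and 121, 139.8 and 160.4 CPM in ES dcat/dcat. The values within a group were close together and the stages far apart, with a change of -1.08 (SE 0.17, q = 1.7e-04) in wt/wt and -0.92 (SE 0.17, q = 5.4e-04) in dcat/dcat. Rsph6a, the spoke head protein typical of sperm, was at 234, 132 and 143 CPM in the RS wt/wt libraries and 63.4, 43.8 and 77.7 CPM in the ES wt/wt libraries and changed by -1.50 (SE 0.30, q = 0.00117) in wt/wt and -1.65 (SE 0.30, q = 5.7e-04) in dcat/dcat. Rsph3a, a spoke stalk protein, changed by -1.06 (SE 0.27, q = 0.0054) in wt/wt and -1.35 (SE 0.27, q = 0.00109) in dcat/dcat, and its tandem copy Rsph3b, with 96.1% of coding bases identical, by -0.53 in wt/wt without a call. Rsph1, another head protein, was at 1111, 561 and 498 CPM in the RS wt/wt libraries and 501, 232 and 388 CPM in the ES wt/wt libraries. Replicate 1 stood well above replicates 2 and 3 in RS, and the change was -0.96 (SE 0.43, q = 0.0925) in wt/wt and -1.29 (SE 0.44, q = 0.0292) in dcat/dcat. Cfap91 and Cfap251, which belong to the spoke base, fell in both genotypes with changes between -0.87 and -1.52. Rsph10b went up by 1.40 (SE 0.42, q = 0.016) in wt/wt and 1.20 (SE 0.40, q = 0.0277) in dcat/dcat, with 8.31, 13.1 and 12.4 CPM in wt/wt RS libraries against 31.7, 34.2 and 21.2 CPM in wt/wt ES libraries. That call was lost without RS wt/wt replicate 1 or ES wt/wt replicate 2, and in 4 of 6 such fits in dcat/dcat, and it was not made under scaling by total counts in either genotype.

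The central pair apparatus had 11 contigs of 8 genes, with a median change of 0.20 in wt/wt and 0.10 in dcat/dcat. That sign rests on the extra contigs of Cfap69 and Cfap119: over the most counted contig of each gene the median was -0.46 and -0.38, and under scaling by total counts that of all 11 contigs was -0.52 and -0.56. Of its 11 contigs 4 rose and 1 fell in each genotype, and the 4 were both contigs of Cfap119 and 2 contigs of Cfap69. Cfap119, a protein of the central apparatus, was at 181, 219 and 250.1 CPM in the RS wt/wt libraries and 406, 460.3 and 332 CPM in the ES wt/wt libraries. It was at 198, 233 and 250.5 CPM in RS dcat/dcat and 338, 474 and 562 CPM in ES dcat/dcat. ES values exceeded RS values throughout, with a change of 0.89 (SE 0.21, q = 0.00372) in wt/wt and 1.01 (SE 0.21, q = 0.0014) in dcat/dcat. Cfap69, required for tail formation in mouse sperm, was at 130.4, 81.03 and 88.7 CPM in the RS wt/wt libraries and 222, 145 and 145 CPM in the ES wt/wt libraries and changed by 0.77 (SE 0.23, q = 0.0168) in wt/wt and 0.75 (SE 0.24, q = 0.0199) in dcat/dcat. Under scaling by total counts the change of the most counted contig came to 0.17 and 0.35 for Cfap119 and 0.04 and 0.08 for Cfap69 in wt/wt and dcat/dcat, with 0 calls, and the Cfap69 call was lost in 3 of 6 fits with 1 library left out in each genotype. Cfap65, another central pair protein, fell, with a change of -0.85 (SE 0.23, q = 0.00874) in wt/wt and -0.92 (SE 0.23, q = 0.00536) in dcat/dcat. Cfap46, Cfap47, Cfap54, Cfap74 and Cfap221 were called in neither genotype.

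Inner arm tethers and linkers had 8 contigs, with 2 falls in wt/wt (25%) and 3 in dcat/dcat (37.5%), against 16.5% and 16.9% of all contigs. Cfap58 was at 61.5, 61.96 and 70.96 CPM in the RS wt/wt libraries and 19.02, 28.5 and 42.4 CPM in the ES wt/wt libraries and changed by -1.17 (SE 0.28, q = 0.00367) in wt/wt and -1.15 (SE 0.27, q = 0.00296) in dcat/dcat. Cfap43, which with Cfap44 tethers an inner arm motor to the doublet, was at 87.2, 86.99 and 102 CPM in the RS wt/wt libraries and 61.3, 81.8 and 67.1 CPM in the ES wt/wt libraries. Its change was -0.39 (SE 0.20, q = 0.129) in wt/wt and -0.07 (SE 0.19, q = 0.784) in dcat/dcat, and that of Cfap57 was -0.23 (SE 0.25, q = 0.481) in wt/wt and -0.14 (SE 0.25, q = 0.665) in dcat/dcat. Neither was called.

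Microtubule inner proteins had 22 contigs of 15 genes, of which 9 fell and 2 rose in wt/wt, and 8 fell and 2 rose in dcat/dcat. The falls were 40.9% and 36.4%, against 16.5% and 16.9% of all contigs, and the rises 9.09% in each, against 23.8% and 24%. Cfap95 was at 394, 404 and 409 CPM in the RS wt/wt libraries and 175, 234 and 155 CPM in the ES wt/wt libraries. It was at 358, 405 and 382 CPM in RS dcat/dcat and 162, 255 and 208 CPM in ES dcat/dcat. The stages were apart and the change was -1.08 (SE 0.19, q = 4.7e-04) in wt/wt and -0.88 (SE 0.19, q = 0.00213) in dcat/dcat. Cfap52, a protein of the doublet lumen, was at 241, 186 and 183 CPM in the RS wt/wt libraries and 104, 68.5 and 102 CPM in the ES wt/wt libraries. It was at 224, 207 and 154 CPM in RS dcat/dcat and 74.2, 44.9 and 59.1 CPM in ES dcat/dcat, with a change of -1.16 (SE 0.24, q = 0.00153) in wt/wt and -1.71 (SE 0.25, q = 9.6e-05) in dcat/dcat. Cfap20, found at the inner junction of the doublet, changed by -1.22 (SE 0.22, q = 6.1e-04) in wt/wt and -1.04 (SE 0.22, q = 0.00166) in dcat/dcat. Cfap45, Cfap107, Cfap161 and Cfap210 also fell in both genotypes. Cfap276 rose with the smallest q of the risen contigs in wt/wt. It was at 243, 244 and 306 CPM in the RS wt/wt libraries and 657, 709.5 and 593 CPM in the ES wt/wt libraries, and at 246, 277 and 262 CPM in RS dcat/dcat and 705, 559 and 509.9 CPM in ES dcat/dcat. The lowest ES library was above the highest RS library in both genotypes, and the change was 1.30 (SE 0.17, q = 3.1e-05) in wt/wt and 1.18 (SE 0.17, q = 8.1e-05) in dcat/dcat, or 2.47-fold and 2.26-fold. It kept its call under scaling by total counts, with changes of 0.59 and 0.50. Cfap126 and Cfap90 changed by -0.09 and -0.24 in wt/wt, with 0 calls.

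The 10 other CFAP genes had 17 contigs, of which 4 fell and 2 rose in wt/wt, and 7 fell and 2 rose in dcat/dcat. The falls were 23.5% and 41.2%, against 16.5% and 16.9% of all contigs, and the rises 11.8% in each, against 23.8% and 24%. Cfap36 had the smallest q of all axonemal contigs that fell, in both genotypes. It was at 602, 565 and 590.2 CPM in the RS wt/wt libraries and 259.9, 239.7 and 268 CPM in the ES wt/wt libraries. It was at 608, 544 and 552 CPM in RS dcat/dcat and 241, 269.6 and 245 CPM in ES dcat/dcat. The 6 values of a stage spanned a narrow range, and the change was -1.20 (SE 0.14, q = 1.4e-05) in wt/wt and -1.17 (SE 0.14, q = 1.9e-05) in dcat/dcat, or 2.29-fold and 2.26-fold lower. Cfap97 and Cfap299 fell too, with changes of -0.85 (SE 0.20, q = 0.00397) in wt/wt and -1.03 (SE 0.20, q = 9.7e-04) in dcat/dcat for the former and -1.19 (SE 0.30, q = 0.00569) in wt/wt and -1.42 (SE 0.31, q = 0.00198) in dcat/dcat for the latter. Cfap97d1, required to keep the sperm axoneme intact in mice, rose in both of its contigs. The more counted one was at 42.4, 78.6 and 96.4 CPM in the RS wt/wt libraries and 251, 358 and 286 CPM in the ES wt/wt libraries. It was at 53.4, 86.5 and 74.2 CPM in RS dcat/dcat and 311, 302 and 248 CPM in ES dcat/dcat. All ES values lay above every RS value, and the change was 2.04 (SE 0.28, q = 5.1e-05) in wt/wt and 2.01 (SE 0.28, q = 6.5e-05) in dcat/dcat. The second contig, ENSMUST00000176722, changed by 1.94 (SE 0.36, q = 6.6e-04) in wt/wt and 1.72 (SE 0.36, q = 0.00143) in dcat/dcat.

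**Figure D3:**
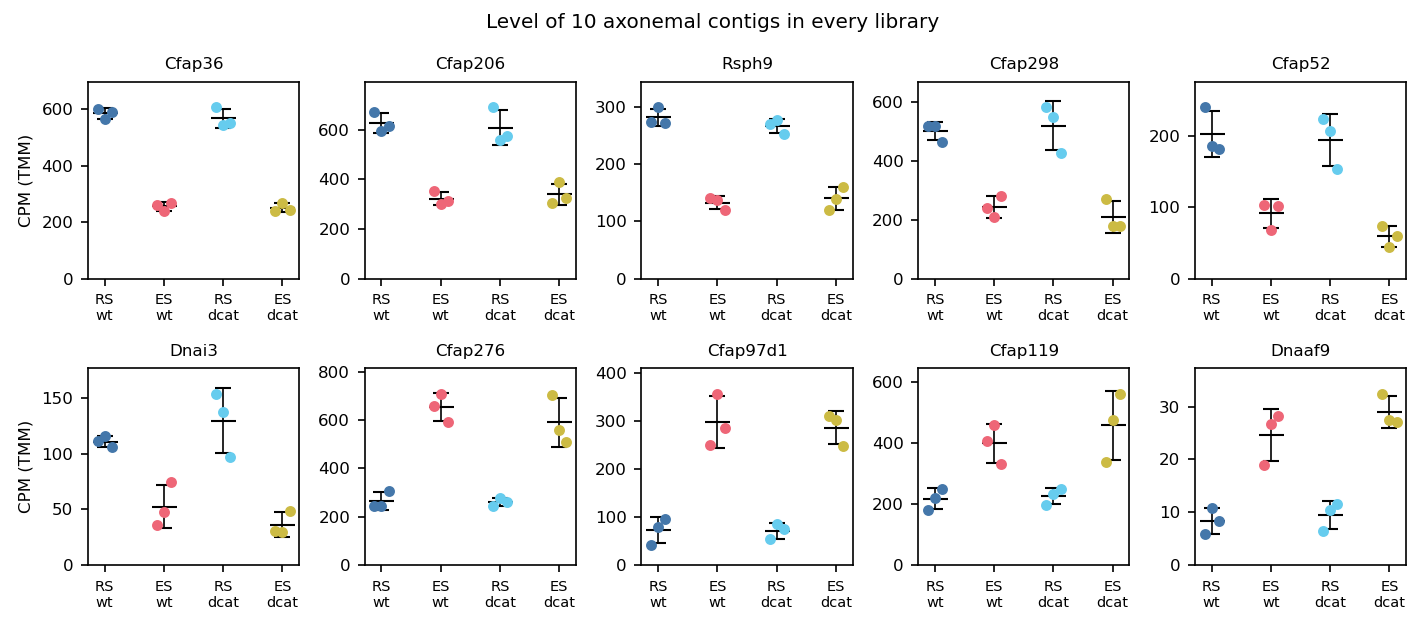
TMM-scaled CPM (y axis, from 0) of the most counted contig of 10 genes in the 4 groups, with points for the 3 libraries and bars for mean and SD. Cfap36, Cfap206, Rsph9, Cfap298, Cfap52 and Dnai3 are lower in every ES library than in every RS library of the same genotype, and Cfap276, Cfap97d1, Cfap119 and Dnaaf9 are higher.

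Some genes changed the balance of their own contigs, which a sum over the gene would hide. Contig usage, the share of a gene's counts that each contig takes, was tested with the edgeR test of differential usage in 41 axonemal genes with several contigs among 2589 such genes. In wt/wt 4 were called, against 4.87% of all genes tested, and in dcat/dcat 3, against 5.06%. With the replicate number as a block over all 12 libraries, 9 of 41 were called in dcat/dcat, against 16.9% of all genes under the same block. They were the 4 genes below with Cfap69, Odad4, Rsph1, Rsph3a and Rsph6a. Between the dcat/dcat stages only replicate 1 clearly deviated together, so the block is weakly founded. Without RS wt/wt replicate 1, or without ES wt/wt replicate 2, 2 of the 4 kept a call in wt/wt, Cfap68 and Cfap206.

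Cfap68, a microtubule inner protein, had the smallest q (q = 3.3e-05 in wt/wt and 2.2e-05 in dcat/dcat). Both of its coding contigs lie on the minus strand of chromosome 9 in build GRCm38, ENSMUST00000042576 at chr9:50763703-50766102 and ENSMUST00000042468 at chr9:50762828-50768452. They share 462 coding bases up to the stop codon and differ at both ends, in the first coding exon and in a 3′ UTR of 153 against 1028 bases. The starts of the coding sequences are shown because they set the contig that rose apart from the one that fell. Capitals mark the bases of the contig's own first coding exon, at chr9:50765703-50765789 in the risen contig and chr9:50767861-50767899 in the fallen one, and the lower case letters are the first 30 shared bases.
Cfap68 ENSMUST00000042576, risen: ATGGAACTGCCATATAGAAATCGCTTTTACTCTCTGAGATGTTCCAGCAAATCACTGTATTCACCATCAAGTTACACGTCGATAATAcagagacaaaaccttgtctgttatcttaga
Cfap68 ENSMUST00000042468, fallen: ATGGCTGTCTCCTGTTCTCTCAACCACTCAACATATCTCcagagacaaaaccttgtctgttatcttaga

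The contig with the long own exon (87 bases) was at 26.6, 70.3 and 75.1 CPM in the RS wt/wt libraries and 317, 285 and 254 CPM in the ES wt/wt libraries. It was at 36.3, 61.6 and 73.3 CPM in RS dcat/dcat and 278, 292 and 272 CPM in ES dcat/dcat. All ES values lay far above every RS value, and it changed by 2.32 (SE 0.33, q = 6.3e-05) in wt/wt and 2.29 (SE 0.33, q = 7.8e-05) in dcat/dcat. The contig with the short own exon (39 bases) was at 299.9, 268 and 288 CPM in the RS wt/wt libraries and 194, 205 and 177 CPM in the ES wt/wt libraries. It was at 302, 312 and 274 CPM in RS dcat/dcat and 202, 162 and 150.3 CPM in ES dcat/dcat, lower in every ES library, with a change of -0.57 (SE 0.17, q = 0.0138) in wt/wt and -0.79 (SE 0.17, q = 0.00168) in dcat/dcat. The first contig took 7.86, 19.9 and 19.3% of the gene's counts in RS wt/wt and 59.1, 55.1 and 55% in ES wt/wt. In dcat/dcat it took 10.4, 15.7 and 19.6% and 55, 60.9 and 59.9%. It held a minority of Cfap68 counts in every RS library and the majority in every ES library. Another, intron-retaining contig took 3.35 to 7.06% in all libraries.

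Cfap206, a protein of the radial spoke base, changed the balance of contigs that differ in their 3′ part (q = 6.2e-04 and 0.00106). Its contigs lie on the minus strand of chromosome 4, ENSMUST00000029971 at chr4:34688559-34730206 and ENSMUST00000108136 at chr4:34711332-34730178. They share the first 1494 coding bases and part at an exon end, from which the longer one is spliced to further exons and reaches 1869 coding bases with its stop codon, while the shorter one reads on into the intron and stops at 1515. The coding bases around that point are shown, with the shared ones in lower case and those of each contig in capitals, at chr4:34692471-34692530 and chr4:34711381-34711401.
Cfap206 ENSMUST00000029971, spliced: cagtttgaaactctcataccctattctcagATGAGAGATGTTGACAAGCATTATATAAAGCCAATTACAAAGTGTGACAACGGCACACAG
Cfap206 ENSMUST00000108136, read on: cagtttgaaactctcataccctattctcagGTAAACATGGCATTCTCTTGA

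The spliced contig was at 671, 593 and 616 CPM in the RS wt/wt libraries and 351, 300.5 and 314 CPM in the ES wt/wt libraries. It was at 690.3, 559.9 and 574 CPM in RS dcat/dcat and 304, 387 and 326 CPM in ES dcat/dcat, lower in every ES library, and it changed by -0.96 (SE 0.16, q = 2.3e-04) in wt/wt and -0.84 (SE 0.16, q = 6.0e-04) in dcat/dcat. The contig that reads on was at 77.3, 73.9 and 76.3 CPM in the RS wt/wt libraries and 120.4, 89.4 and 113 CPM in the ES wt/wt libraries. It was at 79.1, 93.1 and 74.98 CPM in RS dcat/dcat and 128, 105 and 128 CPM in ES dcat/dcat, higher in every ES library, and it changed by 0.50 (SE 0.20, q = 0.0579) in wt/wt and 0.55 (SE 0.20, q = 0.0355) in dcat/dcat. Its share of the gene's counts went from 10.3, 11.1 and 11% in RS wt/wt to 25.6, 22.9 and 26.4% in ES wt/wt, and from 10.3, 14.3 and 11.5% to 29.6, 21.3 and 28.3% in dcat/dcat. The rise in level depends on the scaling, since by total counts alone the change was -0.22 in wt/wt and -0.12 in dcat/dcat, while a share within a gene does not change with it.

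**Figure D4:**
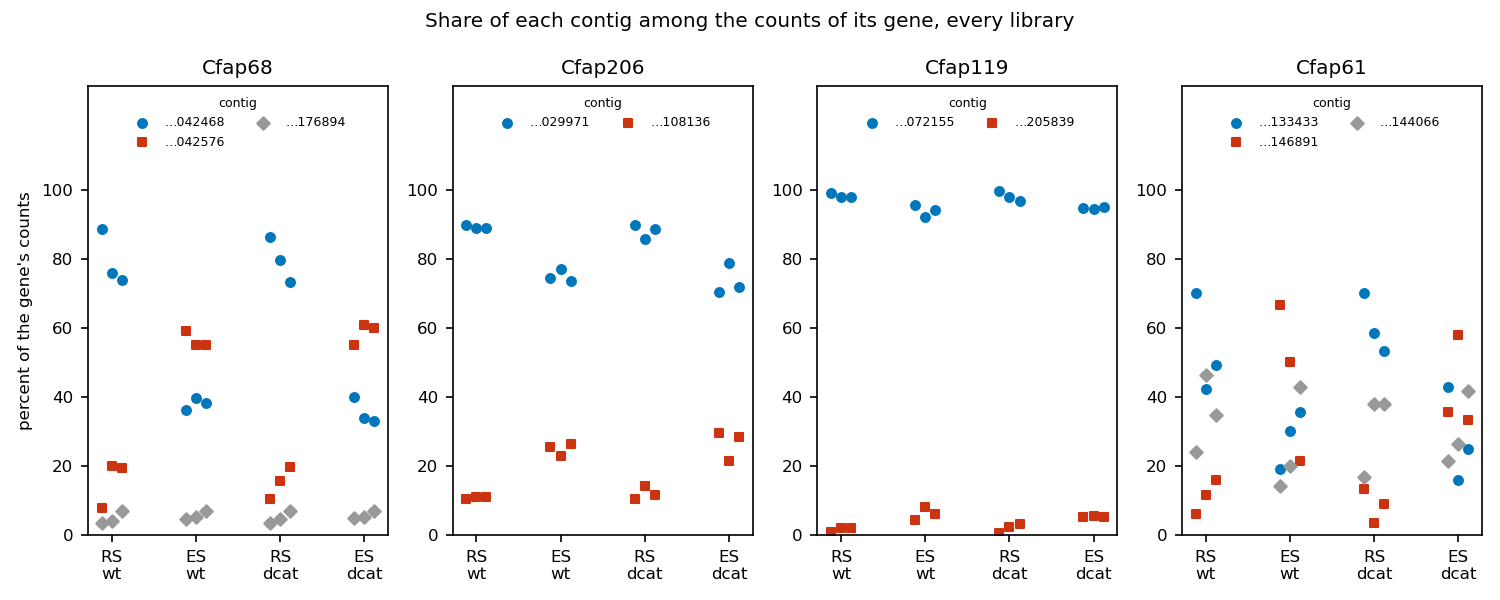
Percent of the gene's counts (y axis) taken by each contig of Cfap68, Cfap206, Cfap119 and Cfap61 in each of 12 libraries, with contigs named by the last 6 digits of their identifiers. The red contig of Cfap68 lies at 7.86 to 19.9% in RS and at 55.0 to 60.9% in ES, and that of Cfap206 at 10.3 to 14.3% and 21.3 to 29.6%.

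The other 2 genes had a short contig that gained. For Cfap119 (q = 0.0358 in wt/wt and 0.181 in dcat/dcat), ENSMUST00000205839, with a 3′ UTR of 51 bases against 1028 in the most counted contig, was at 1.66, 4.77 and 5.32 CPM in the RS wt/wt libraries and 19.02, 39.95 and 21.2 CPM in the ES wt/wt libraries. It changed by 2.74 (SE 0.55, q = 0.00113) in wt/wt and 2.31 (SE 0.55, q = 0.00357) in dcat/dcat, and took 0.538 to 3.18% of the gene's counts in RS and 4.48 to 7.98% in ES. For Cfap61 (q = 0.0129 and 0.0125), a spoke base protein, the short non-coding contig ENSMUST00000146891 of 577 bases had 3, 3 and 11 counts in RS wt/wt and 14, 10 and 3 in ES wt/wt, and changed by 2.18 (SE 0.57, q = 0.00689) in wt/wt and 2.18 (SE 0.65, q = 0.0154) in dcat/dcat. The coding contig ENSMUST00000133433 changed by -0.82 (SE 0.43, q = 0.142) in wt/wt and -1.31 (SE 0.45, q = 0.0305) in dcat/dcat. The gene's counts were too few to fix the shares closely, and RS and ES shares of the short contig spanned 3.45 to 15.9% and 21.4 to 66.7%.

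In Cfap68, Cfap119 and Cfap206 the gaining contig was the one with the shorter 3′ UTR. Over all 13 axonemal genes with coding contigs whose 3′ UTRs differed by at least 100 bases, the shorter form had the higher log2 change in 8 genes (61.5%) in wt/wt and 8 in dcat/dcat. Over all 917 such genes it did in 465 (50.7%) and 479 (52.2%). Cfap68, Cfap119 and Cfap206, which prompted the comparison, are counted among the 13 and the 8, so the axonemal share is no separate support. Of the 133 axonemal contigs with an annotated sequence, 98 (73.7%) carried AATAAA or ATTAAA in their last 50 bases, against 75.9% of 11104 contigs. Both contigs of Cfap206 did, and in Cfap68 and Cfap119 only the shorter form did.

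Contig length was described for the same calls. The 11 contigs that rose in wt/wt had a median of 1015 bases and the 43 that fell one of 2354 bases, against 1746.5 and 2119 bases for all contigs called. Over 133 axonemal contigs, Spearman's rho between length and log2 change was -0.04 in wt/wt and -0.17 in dcat/dcat, as a description of contigs that share libraries and genes. Over all 11108 contigs with an annotated length it was -0.13 and -0.11. The 18 axonemal contigs of up to 1000 bases had a median change of -0.05 in wt/wt, the 32 of 1000 to 2000 bases one of -0.72, and the 47 of 2000 to 4000 bases one of -0.72. For all contigs these medians were 0.34, -0.33 and -0.39. The 16 axonemal contigs of 4000 to 10000 bases and the 20 longer ones had medians of -0.61 and -0.59, against -0.33 and -0.34 for all contigs.

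The promoters of the genes were read from RefSeq on GRCm38.p6, 300 bases each with 250 before and 50 after the start of transcription. RFX factors, which bind the X-box, act on many ciliary genes, so the palindromic core GTNNCC, then 2 bases, then GGNNAC was searched, which reads alike on both strands. A promoter was found for 68 of 86 genes, and 10 of 68 (14.7%) held the core, against 3.81% of 5540 genes with a tested contig and 2.16% of 27025 genes. Of the 10, Cfap107, Cfap206, Cfap298 and Rsph9 fell in both genotypes and Cfap119 rose in both in their most counted contig. Dnaaf5 was called, as lower, only in wt/wt and Cfap96 only in dcat/dcat, and Cfap77, Cfap126 and Odad3 in neither. Over the most counted contigs of all 85 axonemal genes tested, 32 fell and 6 rose in both genotypes, so the core marked no direction here. The FOXJ1-like core GTAAACA, on either strand, was in 3 of 68 promoters (4.41%), against 3.14% and 4.05%. Foxj1 itself fell, with a log2 change of -1.58 in wt/wt and -1.55 in dcat/dcat, with a mean of 166 CPM in the wt/wt RS libraries and 55.9 CPM in the wt/wt ES libraries. Positions are relative to the RefSeq start, and the windows with the core of Cfap119, Cfap126, Cfap298 and Rsph9 lie inside their counted contigs, which start further upstream, as does part of that of Dnaaf5. The windows of Cfap206 and Cfap107, which lie upstream of their contigs, are shown with the core in capitals, at chr4:34730207-34730252 and chr4:144438780-144438839 on the minus strand.
Cfap206, fallen: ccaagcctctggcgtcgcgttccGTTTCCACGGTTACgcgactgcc
Cfap107, fallen: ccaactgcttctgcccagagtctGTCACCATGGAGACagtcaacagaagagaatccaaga

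Axonemal genes without these symbols were read from a separate list of 40 genes, of which 39 had 61 tested contigs. In wt/wt 27 contigs fell and 2 rose, with a median of -0.83, and in dcat/dcat 27 and 2, with a median of -0.92. The falls were 44.3% in each, against 16.5% and 16.9% of all contigs, and the rises 3.28% in each, against 23.8% and 24%. The medians of all contigs were -0.24 and -0.18. Dynlt2a1, a light chain of the Tctex family, fell in its more counted contig, with a log2 change of -1.05 in wt/wt and -1.14 in dcat/dcat. Spag6l and Spag16, central pair proteins, fell, with changes of -1.17 (Spag6l) and of -1.12 and -1.45 (Spag16, in its 2 contigs) in wt/wt, while Hydin, a central pair protein too, changed by 0.33 and 0.61 in its 2 contigs in wt/wt without a call. Ccdc39, which sets the axonemal repeat, fell, with changes of -1.33 in wt/wt and -1.13 in dcat/dcat. The 2 risen contigs belonged to Nme8 (1.73 and 1.55) and Armc2 (1.68 and 1.66), and in both genes other contigs were not called in wt/wt. In dcat/dcat another Armc2 contig, ENSMUST00000160262, was called lower (-2.74, q = 0.0214 by edgeR). Its mean was 10.1 CPM in RS dcat/dcat and 1.4 CPM in ES dcat/dcat, so Armc2 contigs went in opposite directions there.

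The study asked which spermatid RNAs depend on TENT5C activity, chiefly by the length of their poly(A) tails. Tail length is not held in these counts, so only levels were compared between genotypes here, within each stage. For levels, the study itself reported no significant genotype difference in RS or ES. In RS and in ES, 0 of 139 axonemal contigs were called, as were 0 of all 11831 contigs, or 0%. At an unadjusted p under 0.05 there were 0 axonemal contigs in RS, against 0.828% of all contigs, and 7 (5.04%) in ES, against 3.01%. The median difference between dcat/dcat and wt/wt was 0.03 in RS and 0.00 in ES, and the axonemal log2 differences lay between -0.65 and 0.52 among RS and between -2.85 and 1.76 among ES. DESeq2 also called 0 axonemal contigs in either stage. A missed call does not show that levels were alike.

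The smallest p among axonemal contigs in ES was that of Cfap73, a linker of an inner arm, with 5, 10 and 5 counts in the wt/wt libraries and 3, 0 and 3 counts in the dcat/dcat ones. In CPM these were 10.6, 19.02 and 17.7 and 6.96, 0 and 5.07, and a count of 3 stands for 1.77 to 10.6 CPM depending on the library. The groups did not overlap, with a log2 difference of -1.86 (unadjusted p = 0.00651, q = 1). Dnali1 was at 264, 205 and 191 CPM in ES wt/wt and at 151, 142 and 155 CPM in ES dcat/dcat. All wt/wt values exceeded all dcat/dcat values, with a log2 difference of -0.56 (unadjusted p = 0.0106, q = 1). Dnah7c was at 16.9, 11.4 and 17.7 CPM in ES wt/wt and 32.5, 19.97 and 33.8 CPM in ES dcat/dcat, a log2 difference of 0.95 (unadjusted p = 0.0291, q = 1). In RS the 3 contigs with the smallest p were those of Dnaaf5, Cfap44 and Cfap300, with differences of -0.53, 0.52 and 0.40.

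The stage by genotype interaction asks whether the change from RS to ES differs between genotypes. It called 0 of 139 axonemal contigs and 0% of all contigs. At an unadjusted p under 0.05 it gave 1 axonemal contig, Cfap73 (edgeR's unadjusted p = 0.0357, q = 1), against 1.44% of all contigs. Dnali1 and Dnah14 came next, with unadjusted p-values of 0.0597 and 0.0735 in edgeR's test and q of 1.

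**Figure D5:**
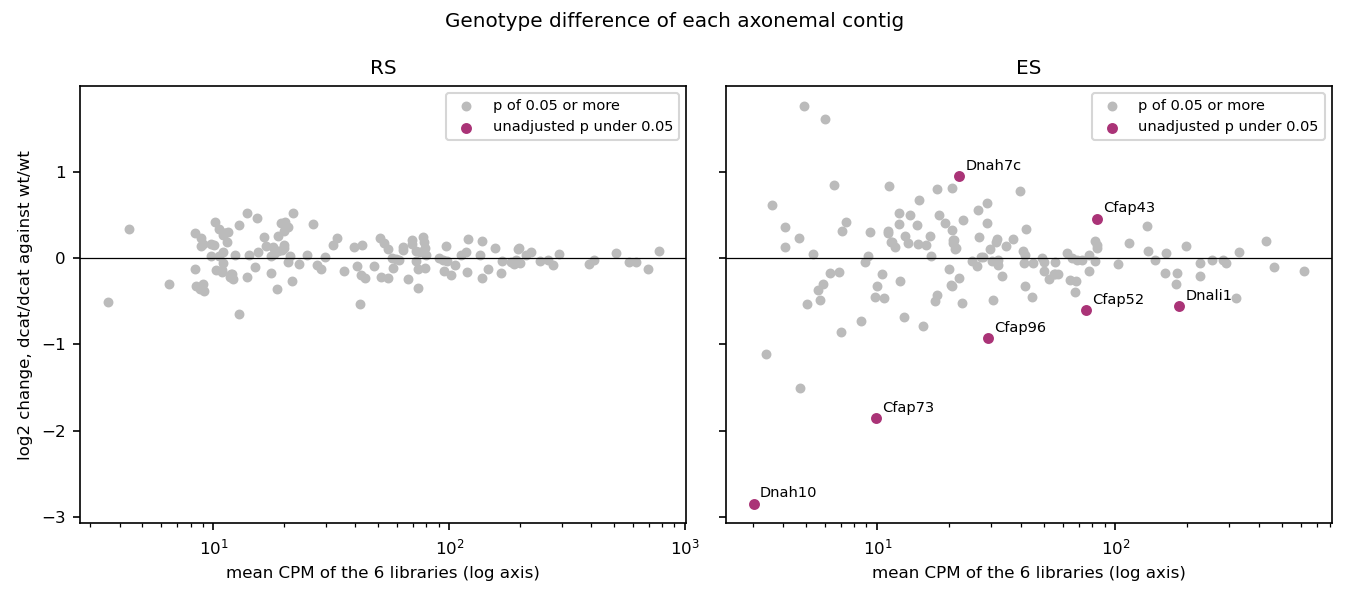
Log2 difference between dcat/dcat and wt/wt (y axis) against the mean CPM of the 6 libraries compared (x axis, log scale) for 139 axonemal contigs in RS (left) and ES (right), with the 7 contigs of unadjusted p under 0.05 named. In RS 0 contigs reach that p and none was called at q of 0.05 in either stage.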

How the data were processed

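RNA of sorted round and elongated spermatids was read by nanopore direct RNA sequencing in 12 libraries, 4 groups of 3. According to the methods, reads were basecalled with Guppy, aligned with minimap2 to GENCODE transcripts and demultiplexed with Deeplexicon. The deposited table holds the authors' counts of reads per contig, not normalized. The deposited DESeq2 tables hold log2 fold changes, mean counts and p-values of the authors' comparisons, and only their gene symbols were used. Oligo(dT) selection and sequencing from the poly(A) tail favour 3′ ends, so contigs that differ near the 5′ end are harder to tell apart.

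Counts were scaled by TMM and tested with the quasi-likelihood F test of edgeR 4.0.16 in R 4.3.3, with 1 mean a group over all 12 libraries, on contigs with at least 10 counts in at least 2 libraries of a group. Contig usage was tested with diffSpliceDGE. Benjamini-Hochberg adjustment ran over all contigs or genes tested. Alternatives were DESeq2 1.42.0, RLE factors, total counts, other filters, the replicate number as a block, the 6 libraries compared, and leaving out each library. Same-numbered RS and ES dcat/dcat libraries deviated together, with correlations of 0.519, 0.252 and 0.291, as did RS libraries of both genotypes (0.696, 0.385 and 0.467). Replicates 2 and 3 of the dcat/dcat stages also gave 0.193 when matched with each other, so only replicate 1 stood clearly apart there. The same-numbered correlations were lower for ES genotypes (0.454, 0.306 and 0.0336) and wt/wt stages (0.403, 0.363 and -0.0946). For these, equal numbers were not read as marking a pair, although round and elongated cells came from the same mice. The replicate block still gave equal numbers a shared effect over all 12 libraries, these included. By the rule for named contigs, these were the most counted contig of up to 3 genes in each role and of every heavy chain gene, the 8 risen and 8 fallen contigs of smallest q in each genotype, the 3 of smallest p in each genotype contrast and the interaction, and genes with contigs called in opposite directions. Other examples were chosen after their values were seen. Members, lists and roles were chosen with earlier results of these data known. Positions and transcript models came from GENCODE vM21 on GRCm38, in which 134 of 140 contigs were found.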

Additional observations from a re-analysis of the deposited data

How the results depend on the processing

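Scaling by total counts alone gave 6 higher and 88 lower axonemal contigs for wt/wt, against 7 and 88 for dcat/dcat. It turned the change of Dnali1 in wt/wt to -0.53 and that of the Cfap206 contig ENSMUST00000108136 in dcat/dcat to -0.12. With at least 10 counts in every library, 4 were higher in either genotype, among fewer contigs tested, and 2 genes changed contig usage in wt/wt. Without 1 library, 9 to 12 contigs were higher and 21 to 40 lower for wt/wt, with 10 to 11 and 35 to 41 for dcat/dcat, and 2 to 3 genes changed usage in wt/wt and 2 to 4 in dcat/dcat.

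With the replicate block, 14 contigs were higher and 52 lower in wt/wt, 14 and 57 in dcat/dcat, and usage changed in 4 genes in wt/wt and 9 in dcat/dcat. It also called Cfap206 ENSMUST00000108136 (0.49, q = 0.0351 by edgeR), Drc3 (-0.82, q = 0.0115), Odad3 (-0.94, q = 0.0129) and Rsph1 (-0.93, q = 1.8e-04) in wt/wt. The block links equal numbers in wt/wt too, where replicate 3 did not deviate together between the stages. The genotype and interaction calls stayed at 0 under every alternative run, the block included. DESeq2 gave 12 higher and 34 lower for wt/wt, against 12 and 43 for dcat/dcat. The share of all contigs called under the block, DESeq2 or with 1 library left out is not given here. A shift in these counts is therefore not read as particular to axonemal contigs. Over all genes, the block raised usage calls from 4.87% to 11.6% in wt/wt and from 5.06% to 16.9% in dcat/dcat. The cause of these shifts was not tested. A count of 3 stands for 1.77 to 10.6 CPM, and this limits what could be seen in the heavy chains.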
